A study of Mus musculus with 4 samples.

Results

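The genes described here encode the machinery of protein synthesis: the proteins of the cytosolic ribosome (symbols Rpl and Rps), the nuclear-encoded proteins of the mitochondrial ribosome (Mrpl and Mrps) and the translation initiation factors and their regulators (Eif). They were chosen by symbol among the protein-coding genes of GRCm38 RefSeq, and a peak belonged to a gene when it lay within 1000 bases of either end of the gene span. This gave 225 genes of 21900 protein-coding genes. Of these, 65 had a peak, each gene a single peak and no peak belonging to 2 of the genes, so that 65 of the 3187 peaks in the deposited table were analysed. A second protein-coding gene outside the set also had an end within 1000 bases at 28 of these peaks. The Rpl/Rps subfamily had 26 genes with a peak, the Mrpl/Mrps subfamily 20 and the Eif subfamily 19.

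The assay was ATAC-seq, in which the Tn5 transposase cuts and tags open DNA, applied to CD8+ T cells isolated with magnetic beads from spleens of OTI:Cas9 mice. Complexes of Cas9 protein and a guide RNA were electroporated into them, with the guide being either sgPrdm12 (genotype label Prdm12-ko) or sgNTC (genotype label Prdm12-wt). There were 2 libraries per guide, with replicate 1 of each in batch 1 and replicate 2 of each in batch 2. All cells thus came from OTI:Cas9 animals and all received Cas9 complexes per the treatment protocol, although the series text calls the controls non-edited. The labels do not say whether replicates came from different cultures or animals. The p-values therefore cover the spread among these libraries alone, and that spread may be technical.

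In growing T cells, protein synthesis is a major use of energy, and the genes for its machinery have promoters that are open in most cell types. Cytosolic ribosomal proteins assemble with ribosomal RNA in the nucleolus. Their mRNAs typically begin with a cytosine and a run of pyrimidines, the 5′ terminal oligopyrimidine tract, through which mTOR signalling adjusts their translation. Mitochondrial ribosomal proteins are made in the cytosol and imported to build the ribosomes that translate the respiratory chain subunits encoded in mitochondrial DNA. Initiation factors bring the small ribosomal subunit, the initiator tRNA and the capped mRNA together.

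The start regions of 9 members whose peaks are described later are shown first, because the peaks lie on them. Each is the sense strand from 100 bases before the RefSeq start through the first 20 transcribed bases, on build GRCm38.p6. Capitals mark a run of at least 5 pyrimidines across the annotated start, the ETS factor motif CCGGAAG, the NRF1 core TGCGCA or the YY1 motif AAGATGG, the motifs being searched on both strands and the run on the sense strand. The cytosolic set holds the named Rpl/Rps members with the pyrimidine run, Rps18 (chr17:33955646-33955765, minus strand) and Rpl14 (chr9:120571417-120571536, plus strand), and Rpl4 (chr9:64173287-64173406, plus strand), which has none of the marked features.
Rps18: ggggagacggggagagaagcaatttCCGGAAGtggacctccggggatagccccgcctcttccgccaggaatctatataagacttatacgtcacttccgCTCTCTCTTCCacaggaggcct
Rpl14: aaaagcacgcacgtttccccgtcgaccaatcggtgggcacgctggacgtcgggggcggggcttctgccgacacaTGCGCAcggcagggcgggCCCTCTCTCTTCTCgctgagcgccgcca
Rpl4: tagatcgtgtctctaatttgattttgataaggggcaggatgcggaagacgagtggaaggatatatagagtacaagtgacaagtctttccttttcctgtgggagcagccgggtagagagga
The run across the start was 11 bases long at Rps18 and 14 bases long at Rpl14. Counting the start as position 1 and the base before it as -1, the ETS motif at Rps18 began at position -75, and the NRF1 core at Rpl14 began at position -26.

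The mitochondrial set holds Mrps18b (chr17:35916421-35916540, minus strand), which had the highest peak of all members, Mrps12 (chr7:28741802-28741921, minus strand) and Mrpl17 (chr7:105811068-105811187, minus strand).
Mrps18b: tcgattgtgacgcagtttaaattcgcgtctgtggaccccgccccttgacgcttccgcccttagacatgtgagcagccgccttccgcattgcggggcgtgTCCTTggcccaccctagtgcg
Mrps12: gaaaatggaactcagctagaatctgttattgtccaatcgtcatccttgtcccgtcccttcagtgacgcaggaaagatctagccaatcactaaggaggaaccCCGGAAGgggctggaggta
Mrpl17: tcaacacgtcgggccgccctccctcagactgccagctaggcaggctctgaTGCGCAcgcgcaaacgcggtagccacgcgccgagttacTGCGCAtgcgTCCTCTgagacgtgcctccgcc
Runs of 5 and 6 pyrimidines crossed the annotated starts of Mrps18b and Mrpl17. The ETS motif of Mrps12 began at position 2, just inside the transcript, and Mrpl17 held the NRF1 core at positions -50 and -12.

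The initiation factor set holds Eif2s1 (chr12:78861972-78862091, plus strand), Eif5a (chr11:69921367-69921486, minus strand) and Eif3k (chr7:28981869-28981988, minus strand), of which Eif2s1 and Eif3k had the smallest p-values of the subfamily.
Eif2s1: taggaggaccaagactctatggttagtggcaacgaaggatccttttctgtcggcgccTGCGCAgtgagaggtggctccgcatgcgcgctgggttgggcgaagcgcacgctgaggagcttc
Eif5a: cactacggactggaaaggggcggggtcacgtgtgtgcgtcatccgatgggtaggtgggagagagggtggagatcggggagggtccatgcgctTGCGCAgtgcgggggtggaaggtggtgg
Eif3k: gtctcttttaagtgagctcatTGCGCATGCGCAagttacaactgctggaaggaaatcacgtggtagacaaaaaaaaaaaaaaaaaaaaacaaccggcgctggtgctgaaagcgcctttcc
Each of the Eif members shown held the NRF1 core, at position -43 in Eif2s1, at -8 in Eif5a, and at -79 and -73 in adjacent copies in Eif3k. Not every named Eif member with its start in a peak is shown. Over whole promoter windows, 7 of 13 Eif windows with the start in a peak held the core. These matches are letters in a window and are not evidence of binding.

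Over whole promoter windows, from 250 bases before to 50 after a start, the subfamilies can be set beside the whole genome. The RefSeq table held 82 windows of Rpl/Rps genes, 75 of Mrpl/Mrps genes and 57 of Eif genes, against 32851 windows in all. The ETS motif was found in 32.9% of Rpl/Rps windows, 34.7% of Mrpl/Mrps windows and 33.3% of Eif windows, against 8.9% of all promoter windows. A pyrimidine run of at least 5 bases across the start was found in 28.0% of Rpl/Rps windows, but in 5.3% of Mrpl/Mrps and 8.8% of Eif windows, against 10.1% of all windows. The TATA box TATAAA was found in 11.0%, 6.7% and 7.0% of the windows of the same subfamilies, against 13.6% of all windows. The E-box CACGTG, to which MYC and MAX bind, was found in 9.8% of Rpl/Rps, 9.3% of Mrpl/Mrps and 21.1% of Eif windows, against 7.2% of all windows. The motif GGGCGG, bound by SP and KLF factors, was found in 57.3%, 52.0% and 70.2% of the windows, against 35.7%.

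Windows with the start in a peak also differed from the rest. Among windows of protein-coding genes whose start lay in a peak, 28.6% held the ETS motif and 28.9% the NRF1 core, against 10.3% and 8.3% where the start lay in no peak. Within the subfamilies, the ETS motif was found in 40.0% of Rpl/Rps windows with the start in a peak, against 30.6% without. For Mrpl/Mrps it was 21.4% against 37.7%, and for Eif 23.1% against 36.4%, the opposite order. The NRF1 core was found in 7 of 13 Eif windows with the start in a peak (53.8%) and in 6 of 44 without (13.6%). For Rpl/Rps these counts were 7 of 20 (35.0%) and 7 of 62 (11.3%), and for Mrpl/Mrps 5 of 14 (35.7%) and 17 of 61 (27.9%). The pyrimidine run was found at Rpl/Rps starts in 3 of 20 windows in a peak (15.0%) and in 20 of 62 outside (32.3%). At Mrpl/Mrps starts it was found in 4 of 14 windows in a peak and in 0 of 61 outside, and at Eif starts in 1 of 13 and 4 of 44. A run was counted only where the annotated start base was itself C or T, so all counts of runs depend on the start annotation. At Rpl4, for example, a pyrimidine run ended a few bases before the annotated start and was not counted. These counts are descriptions, and windows of 1 gene with several starts overlap.

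A translation gene was more often seen with a peak than a protein-coding gene in general. Peaks were found at 28.6% of Rpl/Rps genes, 25.6% of Mrpl/Mrps genes and 33.9% of Eif genes, against 11.4% of all protein-coding genes. Counted by symbol and without Rps19bp1, 13 of 56 Rpl genes and 13 of 34 Rps genes had a peak, as did 13 of 49 Mrpl and 7 of 29 Mrps genes. The Rpl and Rps counts include relatives of the standard ribosomal proteins, such as Rpl3l, Rpl7l1 and Rps27l. Among related genes, 8 of 18 elongation and release factor genes (44.4%) and 18 of 37 aminoacyl-tRNA synthetase genes (48.6%) had a peak. The counts were 18 of 54 ribosome biogenesis genes (33.3%), 7 of 21 mitochondrial translation factor genes (33.3%) and 5 of 20 genes by which mTOR and MYC control translation (25%). Among Rpl/Rps genes without a peak were Rplp0, Rpl3 and Rps6, all standard parts of the ribosome. The sources used here do not say that the table covers every called peak, and absence from it does not mean closed chromatin. Ribosomal protein genes have many pseudogene copies, but only 1 of the 315 RefSeq pseudogenes with an Rpl or Rps symbol had a peak. The treatment of reads that match several places is not stated, which leaves reads over exons of these genes uncertain.

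Most peaks sat on the start of the gene. A RefSeq start was given for 57 of the 65 genes, and the peak covered it at 40 of them, 16 Rpl/Rps, 12 Mrpl/Mrps and 12 Eif genes. At 53 genes the peak lay within 250 bases of the start, and the centre of the peak was at a median of -75 bases, just upstream. The exceptions were 4. The peaks of Rpl41 and of Rpl3l, a relative of Rpl3 used in muscle, lay 1110 and 3815 bases from their starts, at the other end of the gene and beside Zc3h10 and Msrb1. The peaks of Mrps33 and Eif5b lay 731 and 421 bases from their starts. Conversely, the annotated starts of Rpl18 and Rps2 lay in peaks that the distance rule did not assign to them. Those peaks held 13 and 15 reads in sgPrdm12 libraries and 18 and 30 in sgNTC libraries at Rpl18, and 5 and 7 reads in sgPrdm12 libraries and 7 and 13 in sgNTC libraries at Rps2.

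**Figure D1:**
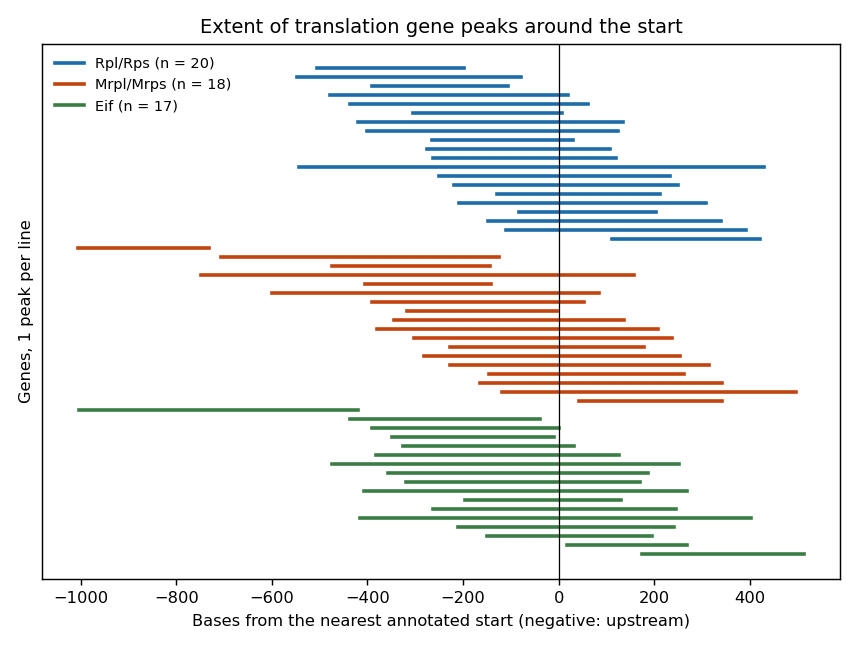
Extent of the member peaks along the gene, in bases from the nearest annotated start, for the 55 genes whose peak centre lies within 1000 bases of it; each line is 1 peak, coloured by subfamily (20 Rpl/Rps, 18 Mrpl/Mrps and 17 Eif). Most lines cross 0, the start, and more of their length lies upstream than downstream.

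Mitochondrial ribosomal protein genes stood beside another gene more often than the others. Of the 20 Mrpl/Mrps peaks, 14 (70.0%) also lay within 1000 bases of an end of a second protein-coding gene, against 7 of 26 Rpl/Rps peaks (26.9%), 7 of 19 Eif peaks (36.8%) and 26.4% of all 1983 gene-end peaks. The gene map has the same order without regard to peaks: 56.4% of Mrpl/Mrps genes had such a neighbour, against 35.2% of Rpl/Rps genes, 48.2% of Eif genes and 24.8% of all protein-coding genes. As examples, Mrpl49 shared its peak with Fau, which encodes a ubiquitin-like protein fused to a ribosomal protein, and Mrps12 with Sars2, the mitochondrial seryl-tRNA synthetase. Mrpl18 shared its peak with Tcp1, a subunit of the chaperonin that folds actin and tubulin, and Mrpl32 with Psma2, a proteasome subunit. Reads in a shared peak cannot be assigned to either gene, and a site open in fewer cells cannot be told apart from one less open in every cell.

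The libraries held 29043 and 20427 reads in all peaks for sgPrdm12 replicates 1 and 2, and 28749 and 58068 for sgNTC replicates 1 and 2. Of these reads, 73.5% and 64.9% in the sgPrdm12 libraries and 70.0% and 74.3% in the sgNTC libraries lay in peaks at gene ends, so sgPrdm12 replicate 2 stood below the others. No marker of CD8 T cells was available as a check of the cell type: none of 9 marker genes, Cd8a, Cd8b1 and Cd3e among them, had a peak. None of 5 B cell, 7 myeloid or 3 NK cell markers had a peak, and 1 of 4 CD4 and regulatory T cell markers (Zbtb7b) and 1 of 4 erythroid markers (Tfrc) had one. The edit itself cannot be checked here, since no peak was assigned to Prdm12. Levels below are normalised counts, that is, reads per 10000 of the library's reads in tested peaks, scaled by TMM, the library scaling of edgeR.

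Member peaks were somewhat higher and wider than gene-end peaks in general. Their median width was 467 bases, against 417 bases for all gene-end peaks. The median of the mean normalised count was 4.89 for Rpl/Rps, 6.06 for Mrpl/Mrps and 5.98 for Eif peaks, against 4.75 for all gene-end peaks and 3.67 for all peaks. The highest member was 12.9 in Rpl/Rps (Rps14), 18.0 in Mrpl/Mrps (Mrps18b) and 14.8 in Eif (Eif5a). The lowest was 1.55 (Rpl38), 0.764 (Mrps33) and 1.99 (Eif2b5). Peak height here counts reads per region, not per base, so wide peaks count more. The count filter of the test, edgeR's filterByExpr with a minimum count of 10, passed 40 of the 65 member peaks, 15 Rpl/Rps, 13 Mrpl/Mrps and 12 Eif. This is 61.5%, against 48.5% of gene-end peaks.

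Each subfamily took under 1% of a library's reads with either guide. Rpl/Rps peaks held 0.968% and 0.783% of the reads in sgPrdm12 replicates 1 and 2, and 0.918% and 0.999% in sgNTC replicates 1 and 2. The group means were 0.875% ± 0.130 and 0.959% ± 0.0569 (SD, n = 2), and the groups overlapped. Mrpl/Mrps peaks held 0.885% and 0.930% in the sgPrdm12 libraries, and 0.831% and 0.842% in the sgNTC libraries, with means of 0.908% ± 0.0320 and 0.837% ± 0.00762. Eif peaks held 0.761% and 0.803% in the sgPrdm12 libraries, and 0.838% and 0.894% in the sgNTC libraries, with means of 0.782% ± 0.0296 and 0.866% ± 0.0392. The Mrpl/Mrps share was thus higher, and the Eif share lower, in both sgPrdm12 libraries than in either sgNTC library.

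The exact test on shares could not reach 0.05 with 2 libraries per guide. The sgPrdm12 share minus the sgNTC share came to 0.0708 percentage points for Mrpl/Mrps, -0.0841 for Eif and -0.0832 for Rpl/Rps. The two-sided exact permutation p was 0.333 for Mrpl/Mrps and Eif, the smallest that 2 against 2 libraries can give, and 0.667 for Rpl/Rps. In batches 1 and 2 the difference was 0.0536 and 0.0880 points for Mrpl/Mrps, -0.0773 and -0.0909 for Eif, and 0.0492 and -0.216 for Rpl/Rps. Without sgPrdm12 replicate 2 the Rpl/Rps difference was 0.00897 points. With a window of 500 bases, which leaves out the Mrpl18 peak among others, the Mrpl/Mrps difference was 0.0119 points. The 95% Wilson intervals of single libraries overlapped within each subfamily except for Rpl/Rps in batch 2, where they were 0.671 to 0.914% in sgPrdm12 replicate 2 and 0.921 to 1.08% in sgNTC replicate 2. These intervals cover counting error only. The library sgPrdm12 replicate 2 is also the one with the low share at gene ends, and the part of that in the Rpl/Rps value was not tested. As a share of gene-end reads, the Rpl/Rps difference in batch 2 was -0.137 points, and the Eif difference was -0.163 points in batch 1 and 0.0348 in batch 2. The Mrpl/Mrps difference on this scale was 0.158 points, with 0.0159 in batch 1 and 0.301 in batch 2, and among reads in tested peaks only it was 0.148 points.

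**Figure D2:**
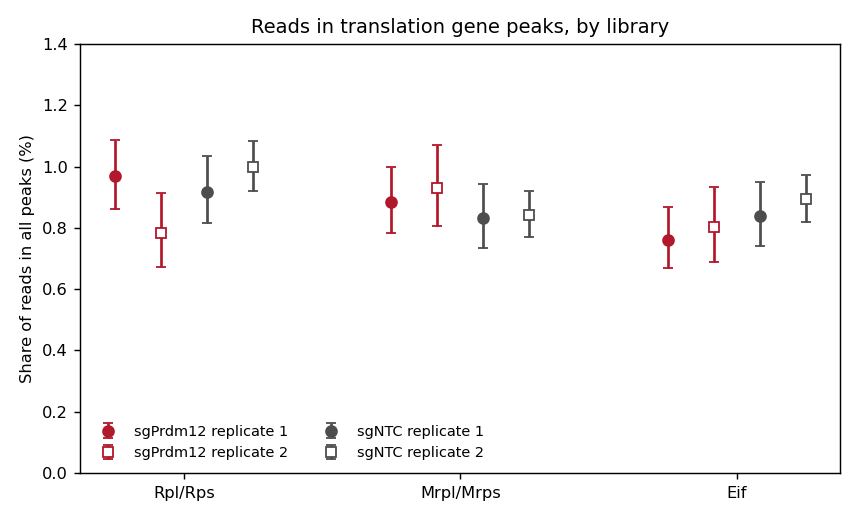
Share of each library's reads in all peaks that fell in Rpl/Rps, Mrpl/Mrps or Eif peaks, in percent, with 95% Wilson intervals as bars; filled points are batch 1 and open squares batch 2. In Mrpl/Mrps both sgPrdm12 points lie above both sgNTC points, in Eif both lie below, and in Rpl/Rps the sgPrdm12 point of batch 2 is the lowest while that of batch 1 lies between the sgNTC points.

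No translation gene peak passed the test between sgPrdm12 and sgNTC cells. With edgeR's quasi-likelihood test and Benjamini-Hochberg adjustment over all 1125 tested peaks, 0 of 15 Rpl/Rps, 0 of 13 Mrpl/Mrps and 0 of 12 Eif peaks were higher or lower at an adjusted p of 0.05, where 0% of all tested peaks were. At an unadjusted p under 0.05, 2 members were higher (Rps14 and Mrpl18) and 3 were lower (Rpl4, Eif2s1 and Eif3k), which is 5 of 40, against 3.02% higher and 2.04% lower of all tested peaks (5.07% in all). DESeq2's Wald test passed 0 members, with 1 Rpl/Rps, 0 Mrpl/Mrps and 0 Eif peaks at an unadjusted p under 0.05. The median log2 fold change was 0.10 for Rpl/Rps, 0.14 for Mrpl/Mrps and -0.16 for Eif, beside 0.02 for all tested peaks and a median standard error of 0.41 for the members. The sign of the Rpl/Rps median turned negative under several settings, among them the replicate block (-0.042). The 95% interval of the fold change lay within 4-fold at 37 of the 40 members and within 2-fold at 10, so that changes of about 2-fold at most single members were not excluded at this depth.

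**Figure D3:**
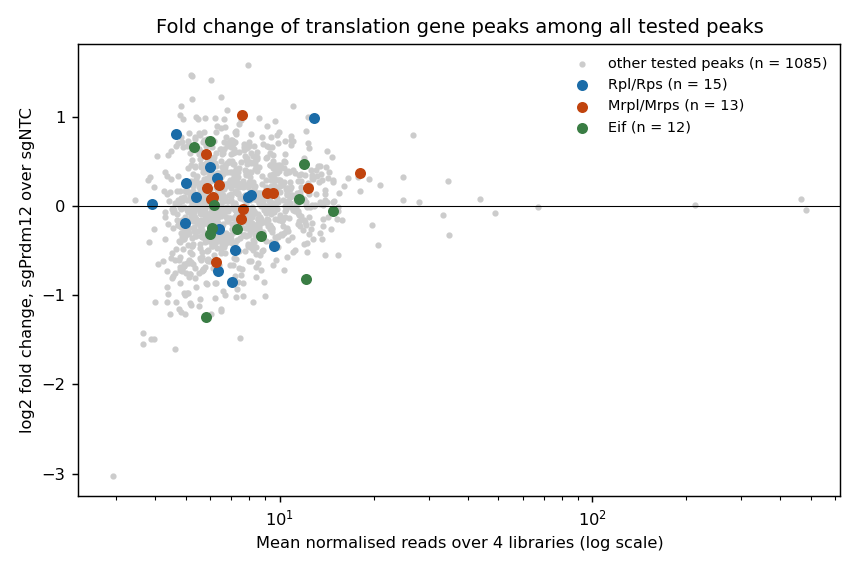
Fitted log2 fold change, sgPrdm12 over sgNTC, against the mean normalised reads of each tested peak on a log scale; grey points are the 1085 other tested peaks and coloured points the 40 member peaks. The members lie within the cloud of other peaks, between -1.25 and 1.02.

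Among proteins of the small cytosolic subunit, Rps14 stood out in height and in difference. Loss of a copy of the human gene in bone marrow impairs red cell formation. Its peak (chromosome 18, 60774336 to 60775080) held 31 and 23 reads in the sgPrdm12 libraries and 18 and 32 reads in the sgNTC libraries. Normalised, this was 15.8 and 18.4 in the sgPrdm12 libraries, against 9.26 and 8.06 in the sgNTC libraries. Both sgPrdm12 values were above both sgNTC values, at a log2 fold change of 0.99 (95% interval 0.38 to 1.59, not adjusted for the number of peaks; edgeR adjusted p = 0.729).

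Rps25 had the next highest peak of the subfamily (chromosome 9, 44407168 to 44407634), which it shared with Trappc4, a subunit of a vesicle tethering complex. RPS25 is dispensable for ordinary initiation but is needed by some viral internal ribosome entry sites. Its normalised count was 8.66 and 7.20 in the sgPrdm12 libraries, against 11.8 and 10.6 in the sgNTC libraries. The groups did not overlap, and the log2 fold change was -0.45 ± 0.34 (SE; adjusted p = 0.97 by edgeR). Rps18 (chromosome 17, 33955531 to 33956085), which shared its peak with Vps52, had 9.17 and 6.40 in the sgPrdm12 libraries, against 10.3 and 5.79 in the sgNTC libraries. Here each replicate 1 library was above each replicate 2 library whatever the guide, and the log2 fold change was 0.10 ± 0.42. Rps15 (chromosome 10, 80292284 to 80292771) had 8.66 and 4.80 in the sgPrdm12 libraries, against 5.14 and 5.29 in the sgNTC libraries, so that the guides overlapped.

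At proteins of the large cytosolic subunit, several of the higher peaks had lower values in sgPrdm12 cells, none past the test. Rpl4 (chromosome 9, 64172909 to 64173405), which shared its peak with the kinetochore gene Zwilch, had 5.09 and 4.80 in the sgPrdm12 libraries, against 9.77 and 8.56 in the sgNTC libraries. Its log2 fold change was -0.85 (95% interval -1.69 to -0.01; edgeR adjusted p = 0.927). Rpl41, the smallest ribosomal protein, had 4.08 and 5.60 in the sgPrdm12 libraries, against 8.23 and 7.56 in the sgNTC libraries, but this peak (chromosome 10, 128547467 to 128548058) is the one at the far end of the gene. Rpl5 (chromosome 5, 107900309 to 107900777), which with Rpl11 holds back MDM2 when ribosome assembly fails, had 5.09 and 7.20 in the sgPrdm12 libraries, against 7.72 and 8.82 in the sgNTC libraries. In all of these the sgPrdm12 values lay below the sgNTC values. Rpl14 (chromosome 9, 120570974 to 120571946), with the widest member peak at 973 bases, had 9.17 and 8.00 in the sgPrdm12 libraries, against 6.17 and 9.07 in the sgNTC libraries, and the groups overlapped.

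The 13 large subunit peaks were taken by symbol and include those of the relatives Rpl7l1 and Rpl3l, and the far-end peak of Rpl41. Their summed level was 58.2 ± 4.21 in sgPrdm12 libraries and 68.8 ± 4.92 in sgNTC libraries (SD, n = 2). The single values were 61.1 and 55.2 in the sgPrdm12 libraries and 65.3 and 72.3 in the sgNTC libraries. The 13 small subunit peaks summed to 77.4 ± 6.53 and 72.1 ± 2.35, with 82.0 and 72.8 in the sgPrdm12 libraries and 70.5 and 73.8 in the sgNTC libraries. The large subunit sum was therefore lower in both sgPrdm12 libraries, while the small subunit sums overlapped. In batch 1 the large subunit sums, 61.1 against 65.3, differed by about as much as Rpl41 alone, at 4.08 against 8.23. The batch 1 difference of the sum thus rests largely on a peak away from the start of its gene. Tested fold changes were above 0 at 4 of 8 large subunit peaks and at 5 of 7 small subunit peaks. These sums were not tested and rest on 120 and 69 reads in the sgPrdm12 libraries and 127 and 287 in the sgNTC libraries for the large subunit.

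Some Rpl/Rps peaks rested mainly on batch 1 or batch 2. Rps12 had 7.13 and 1.60 in the sgPrdm12 libraries, against 5.66 and 5.54 in the sgNTC libraries, so that only sgPrdm12 replicate 2 was low, with 2 reads. Rpl10a had 8.15 and 3.20 in the sgPrdm12 libraries, against 6.17 and 8.06 in the sgNTC libraries. At Rpl38 the sgPrdm12 libraries held 0 and 3 reads and the sgNTC libraries 1 and 13; the count of 0 allows a share of up to 0.0103% of that library's reads. The 11 Rpl/Rps peaks below the filter had mean normalised counts of 1.20 to 4.58 in sgPrdm12 and 1.77 to 5.96 in sgNTC libraries. They included Rpsa, whose product is also known as the laminin receptor, and Rplp1 of the ribosomal stalk.

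**Figure D4:**
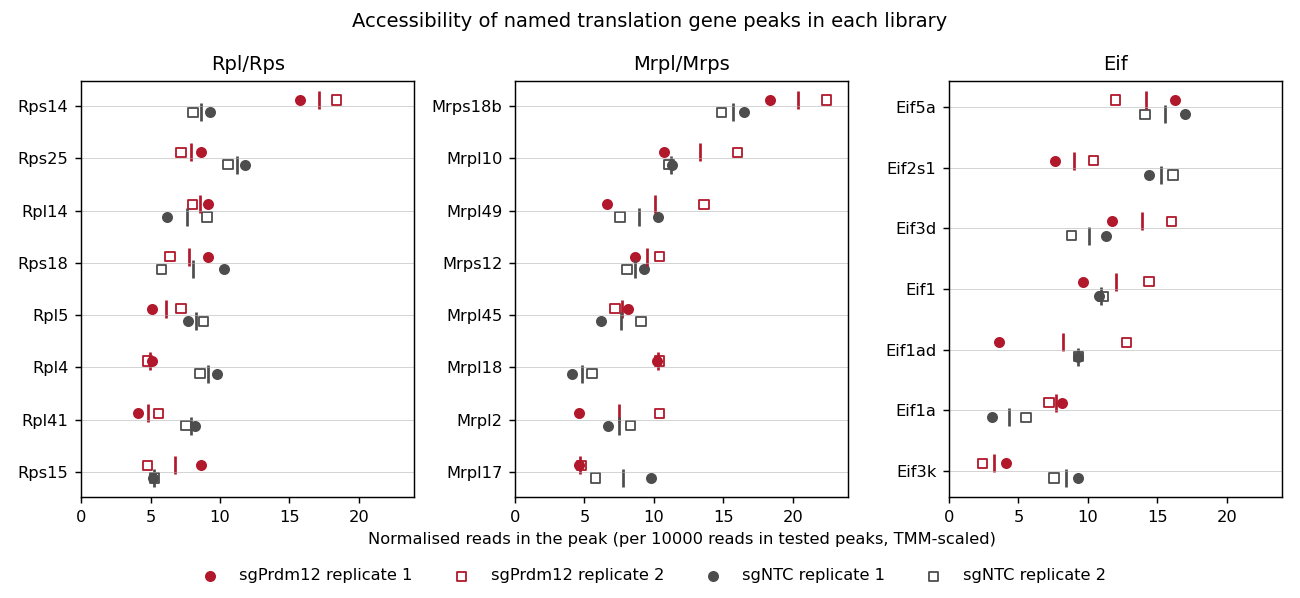
Normalised reads (per 10000 reads in tested peaks, TMM-scaled) of the named members in each library, with sgPrdm12 in red above sgNTC in grey; circles are replicate 1, open squares replicate 2 and ticks the group means. Red lies to the right of grey without overlap at Rps14, Mrps18b, Mrpl18, Eif3d and Eif1a, to the left at Rps25, Rpl5, Rpl4, Rpl41, Mrpl17, Eif2s1 and Eif3k, and the colours overlap at the rest.

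At mitochondrial ribosomal proteins, 10 of 13 tested peaks had a log2 fold change above 0, against 52.1% of all tested peaks, with none past the test. Of these 13 peaks, 7 went opposite ways between batches. Their median log2 fold change was -0.0038 without sgPrdm12 replicate 2. Mrpl18 had the largest difference. It encodes a large subunit protein related to the one that binds 5S rRNA in bacteria, and its peak (chromosome 17, 12916217 to 12916796), shared with Tcp1, held 20 and 13 reads in the sgPrdm12 libraries and 8 and 22 in the sgNTC libraries. Normalised, this was 10.2 and 10.4 in the sgPrdm12 libraries, against 4.12 and 5.54 in the sgNTC libraries. The groups were well apart, at a log2 fold change of 1.02 (95% interval 0.26 to 1.78; edgeR adjusted p = 0.853). This peak was 991 bases from the gene's end as annotated and is not a member within 500 bases. It lay 126 bases upstream of the nearest RefSeq start of the gene.

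Mrps18b had the highest peak of all members (chromosome 17, 35916204 to 35916743), between it and Ppp1r10, a regulator of protein phosphatase 1. It had 18.3 and 22.4 in the sgPrdm12 libraries, against 16.5 and 14.9 in the sgNTC libraries, at a fitted log2 fold change of 0.37 ± 0.27 (SE; adjusted p = 0.97 by edgeR), or 0.22 without sgPrdm12 replicate 2. Both sgPrdm12 values were the higher ones, by less than at Mrpl18. Mrpl10 (chromosome 11, 97040835 to 97041740), a stalk protein, had 10.7 and 16.0 in the sgPrdm12 libraries, against 11.3 and 11.1 in the sgNTC libraries. Mrpl49 (chromosome 19, 6057671 to 6058355) had 6.62 and 13.6 in the sgPrdm12 libraries, against 10.3 and 7.56 in the sgNTC libraries. At both, sgPrdm12 replicate 2 was the highest library and sgPrdm12 replicate 1 the lowest.

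Mrps12 (chromosome 7, 28741769 to 28742212), a decoding centre protein, had 8.66 and 10.4 in the sgPrdm12 libraries, against 9.26 and 8.06 in the sgNTC libraries. Mrpl45 (chromosome 11, 97315490 to 97316029), which anchors the ribosome to the inner membrane, had 8.15 and 7.20 in the sgPrdm12 libraries, against 6.17 and 9.07 in the sgNTC libraries. The groups overlapped at both. Mrpl2 (chromosome 17, 46645841 to 46646428), a protein of the peptidyl transferase region, averaged 7.49 ± 4.11 in sgPrdm12 libraries and 7.50 ± 1.15 in sgNTC libraries (SD, n = 2), with 4.58 and 10.4 in the sgPrdm12 libraries and a log2 fold change of -0.15 ± 0.42. Mrpl17 (chromosome 7, 105810745 to 105811251) had 4.58 and 4.80 in the sgPrdm12 libraries, against 9.77 and 5.79 in the sgNTC libraries. It was the only tested Mrpl/Mrps peak whose sgPrdm12 values all lay below the sgNTC values, at a fitted log2 fold change of -0.63 ± 0.44 (SE; adjusted p = 0.968 by edgeR). It was -0.31 without sgNTC replicate 1 and -1.05 without sgNTC replicate 2.

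Below the filter, Mrps6, a small subunit protein whose peak is shared with Slc5a3, held 15 and 7 reads in the sgPrdm12 libraries and 6 and 14 in the sgNTC libraries, or 7.64 and 5.60 against 3.09 and 3.53 normalised. Mrpl51 had 3.57 and 5.60 in the sgPrdm12 libraries, against 2.57 and 2.27 in the sgNTC libraries. Both sgPrdm12 libraries were higher at each, but these peaks were not tested. At Mrpl40 and Mrps9, also below the filter, both sgPrdm12 libraries were lower. Mrpl40 had 3.57 and 3.20 in the sgPrdm12 libraries, against 4.12 and 5.79 in the sgNTC libraries. Mrps9 had 3.57 and 0.80 in the sgPrdm12 libraries, against 3.60 and 4.28 in the sgNTC libraries. Mrps28 and Mrps9 each had a single read in sgPrdm12 replicate 2. The Mrps33 peak held 6 reads in sgPrdm12 replicate 1 and none in the other libraries. The 13 large mitochondrial subunit peaks summed to 80.0 and 104.8 in the sgPrdm12 libraries, against 79.7 and 81.9 in the sgNTC libraries, so that the groups overlapped and only sgPrdm12 replicate 2 stood apart. The 7 small subunit peaks summed to 50.9 and 47.2 in the sgPrdm12 libraries, against 43.2 and 41.3 in the sgNTC libraries, without overlap and without a test.

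No initiation factor peak passed the test, and the log2 fold changes differed in sign even within a complex. In the eIF2 complex, which carries the initiator tRNA and is the point at which stress kinases stop translation, only the alpha subunit gene Eif2s1 had a peak (chromosome 12, 78861753 to 78862241), shared with Atp6v1d of the vacuolar proton pump. It held 15 and 13 reads in the sgPrdm12 libraries and 28 and 64 in the sgNTC libraries. Normalised, this was 7.64 and 10.4 in the sgPrdm12 libraries, against 14.4 and 16.1 in the sgNTC libraries. The groups did not overlap, and the log2 fold change was -0.82 (95% interval -1.46 to -0.18; edgeR adjusted p = 0.927).

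Eif2ak3, which encodes PERK, the kinase that phosphorylates the product of Eif2s1 under endoplasmic reticulum stress, had 5.09 and 5.60 in the sgPrdm12 libraries, against 6.69 and 6.55 in the sgNTC libraries. The difference was small, at a log2 fold change of -0.31 ± 0.42, though the groups did not overlap. Of the eIF2B exchange factor, Eif2b4 and Eif2b5 had peaks of 1 to 14 reads per library, below the filter.

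In eIF3, the scaffold complex that binds the small ribosomal subunit, 3 of 14 genes had a peak. Eif3k (chromosome 7, 28981887 to 28982278), whose peak is shared with Map4k1, a kinase known as HPK1 that dampens signals of the T cell receptor, held 8 and 3 reads in the sgPrdm12 libraries and 18 and 30 in the sgNTC libraries. Normalised, this was 4.08 and 2.40 in the sgPrdm12 libraries, against 9.26 and 7.56 in the sgNTC libraries, at a log2 fold change of -1.25 (95% interval -2.16 to -0.33; edgeR adjusted p = 0.853). Eif3d (chromosome 15, 77970572 to 77971298), the cap-binding subunit, had 11.7 and 16.0 in the sgPrdm12 libraries, against 11.3 and 8.82 in the sgNTC libraries, at a fitted log2 fold change of 0.47 ± 0.31 (SE; adjusted p = 0.968 by edgeR). It was 0.24 without sgPrdm12 replicate 2, 0.26 without sgNTC replicate 2 and 0.74 without sgPrdm12 replicate 1. Eif3b, a core subunit, had 6.11 and 7.20 in the sgPrdm12 libraries, against 3.09 and 4.79 in the sgNTC libraries. Thus the sgPrdm12 values lay below the sgNTC values at Eif3k and above them at Eif3d and Eif3b.

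Of the eIF1 and eIF1A genes and their relatives, 3 of 5 had a peak. Eif1, which guards start codon choice (chromosome 11, 100319533 to 100320350) had 9.68 and 14.4 in the sgPrdm12 libraries, against 10.8 and 11.1 in the sgNTC libraries. Eif1a (chromosome 18, 46597364 to 46597869), shared with Tmed7, had 8.15 and 7.20 in the sgPrdm12 libraries, against 3.09 and 5.54 in the sgNTC libraries, at a fitted log2 fold change of 0.73 ± 0.45 (SE; adjusted p = 0.968 by edgeR). It was 0.48 without sgNTC replicate 1 and 1.31 without sgNTC replicate 2. Eif1ad (chromosome 19, 5366431 to 5366938), shared with Banf1, had 3.57 and 12.8 in the sgPrdm12 libraries, against 9.26 and 9.32 in the sgNTC libraries. The sgPrdm12 libraries were the lowest and the highest at Eif1ad and at Eif1, so the spread within sgPrdm12 there exceeded the difference between guides.

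Eif5a, whose product carries the amino acid hypusine and helps ribosomes past proline runs, had the highest Eif peak (chromosome 11, 69921118 to 69921793). It held 32 and 15 reads in the sgPrdm12 libraries and 33 and 56 in the sgNTC libraries. The normalised count averaged 14.1 ± 3.04 in sgPrdm12 and 15.5 ± 2.03 in sgNTC libraries (SD, n = 2), and the groups overlapped at a log2 fold change of -0.06 (95% interval -0.67 to 0.54). This interval excludes a 2-fold change in either direction, unadjusted for the number of peaks. The eIF4 factors bind and unwind capped mRNA. Of 17 genes with an Eif4 symbol, which also take in Eif4ebp1 and Eif4enif1, 6 had a peak and 2 were tested. The log2 fold change was 0.00 ± 0.41 at the helicase gene Eif4a1 and -0.25 ± 0.42 at Eif4a3 of the exon junction complex. The cap-binding protein gene Eif4e and its inhibitor gene Eif4ebp1 had no peak.

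Signs were also compared between batches. Each batch gives its own log2 ratio, from 1 library per guide with 0.5 added to each normalised count. Of the 40 tested members, 12 were higher in sgPrdm12 in both batches, 13 were lower in both and 15 went opposite ways, against 25.2% higher and 24.3% lower in both among all tested peaks. Opposite signs were thus found at 37.5% of members, against 50.5% of all tested peaks. For Rpl/Rps the counts were 4 higher and 5 lower of 15, for Mrpl/Mrps 5 and 1 of 13, and for Eif 3 and 7 of 12. With no overlap of the normalised counts, 10 members were higher and 8 lower in sgPrdm12, against 16.4% and 18% of all tested peaks. The median log2 ratio in batches 1 and 2 was 0.31 and -0.17 for Rpl/Rps, -0.08 and 0.38 for Mrpl/Mrps, and -0.10 and -0.13 for Eif. For Rpl/Rps and Mrpl/Mrps the median therefore changed sign between batches. Among the 5 members with an unadjusted p under 0.05, the ratios were 0.74 and 1.14 at Rps14 and 1.21 and 0.85 at Mrpl18. They were -0.88 and -0.77 at Rpl4, -0.87 and -0.61 at Eif2s1, and -1.09 and -1.47 at Eif3k. These members were picked by p from the same libraries, and their groups did not overlap. Groups that do not overlap must have the same sign in both batches, so this is not a separate check.

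**Figure D5:**
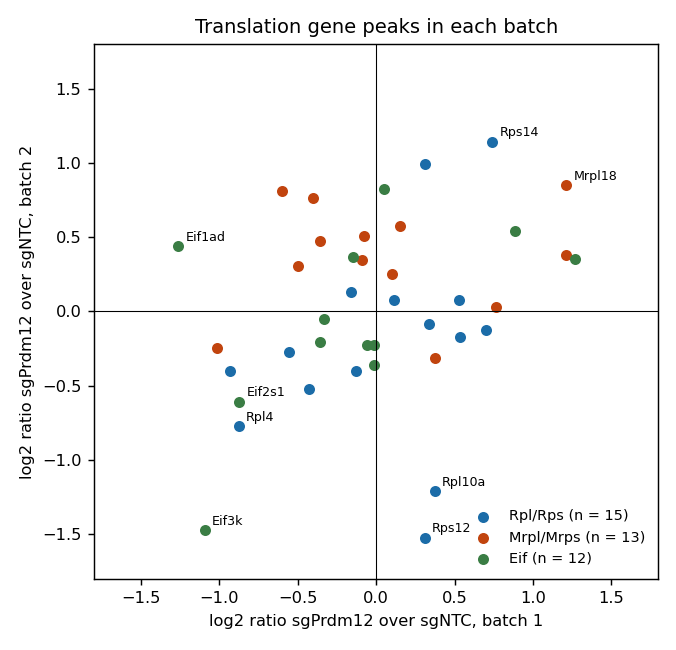
log2 ratio of sgPrdm12 over sgNTC in batch 1 (x axis) and batch 2 (y axis) for the 40 tested member peaks, coloured by subfamily. Rps14 and Mrpl18 lie in the upper right, Eif3k, Rpl4 and Eif2s1 in the lower left, while 15 members lie in the quadrants of opposite sign, Rps12, Rpl10a and Eif1ad farthest out.

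Genes that work with the members gave no called peak either. Of the elongation and release factor genes, 4 had a tested peak, with log2 fold changes from -0.18 ± 0.39 at Eef2, the translocase of elongation, to 0.24 ± 0.42 at Dohh, which completes hypusine on the Eif5a product. Of 18 aminoacyl-tRNA synthetase genes with a peak, 6 were tested. All 6 had log2 fold changes above 0, against 52.1% of all tested peaks, with a median of 0.43. The highest was at Dars (0.69 ± 0.37, edgeR adjusted p = 0.927), and the 6 include the peak that Sars2 shares with Mrps12. The untested peaks went both ways. Kars held 3 and 4 reads in the sgPrdm12 libraries and 7 and 21 in the sgNTC libraries. Pars2 held 12 and 7 reads, against 4 and 6. The 13 tested ribosome biogenesis peaks had a median of 0.04, from -1.11 ± 0.57 at Rrp9 to 0.90 ± 0.43 at Utp18, both components of the complex that processes the small subunit rRNA. The 5 tested mitochondrial translation factor peaks had a median of 0.02, although the smallest adjusted p of the whole table was among them. This was at Rmnd1, a gene needed for mitochondrial translation, with 17 and 19 reads in the sgPrdm12 libraries, against 9 and 13 in the sgNTC libraries, and a fitted log2 fold change of 1.58 ± 0.40 (SE; adjusted p = 0.568 by edgeR). Mtor, the kinase of the growth pathway, had 24 and 13 reads in the sgPrdm12 libraries, against 12 and 22 in the sgNTC libraries, and a fitted log2 fold change of 0.98 ± 0.39 (SE; adjusted p = 0.927 by edgeR). Of all these lists, and of 5 tested peaks in the mTOR and MYC list, 0 peaks were higher and 0 lower at the adjusted threshold, where 0% of all tested peaks were. The lists are not independent. Polr1a of ribosome biogenesis and Ptcd3 of the mitochondrial list share a tested peak. Pabpc1 is on both the elongation list and the mTOR and MYC list.

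Taking the log2 difference (sgPrdm12 minus sgNTC) and standard error of the authors' deposited table, the 95% interval left out 0 at 0 of the 65 member peaks and at 1 of all 3187. For Eif3k the authors' deposited table gave a log2 difference of -1.50 with a standard error of 0.96, for Rps14 the authors' deposited table gave 0.78 with 0.64, and for Mrpl18 the authors' deposited table gave 0.88 with 0.83.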

How the data were processed

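ATAC-seq reads per peak were analysed in 4 libraries, 2 per guide. Reads were counted per peak by the authors, and the deposited counts are whole numbers, used as raw counts. Per the file headers, deposited beside them are log2 means of each group, their log2 difference and its standard error. The submitters' processing notes name build GRCm38 and the tools Bowtie2, cutadapt, Picard, MACS2, HOMER, DiffBind and ChIPseeker. The sources used here do not give their versions or order, whether peaks were called on pooled reads, or any shift of reads for the transposase.

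Peaks were matched to RefSeq gene spans of GRCm38.p6, and starts and promoter windows came from RefSeq. Differences were tested with edgeR 4.0.16 in R 4.3.3 (TMM, filterByExpr with a minimum count of 10, robust quasi-likelihood fit, group as the only term), with Benjamini-Hochberg adjustment over 1125 peaks at 0.05. Standard errors come from the fitted coefficient and F. Shares were compared with exact two-sided permutation tests, and Wilson intervals (95%) cover counting error only. The replicate number marks the labelled batch and so pairs the libraries. The correlation of same-numbered deviations was 0.0582, and a fit with it as a block was an alternative. Replicates of a guide differed by more than sampling noise (chi-square p = 1.318e-22 for sgPrdm12 and 1.513e-08 for sgNTC).

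Other alternatives were DESeq2 1.42.0, other scalings, filters and windows, other denominators, and leaving out each library. Restricting to peaks on an annotated start was chosen after seeing the data. Named in each subfamily were the 5 members with the highest mean normalised count and the 2 tested members with the smallest p in each direction. Others named fall outside this rule and were chosen after their values were seen. The members and lists were chosen with earlier results of these data known.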

Additional observations from a re-analysis of the deposited data

Results flagged for a closer look

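The difference in the Rpl/Rps share of reads, sgPrdm12 minus sgNTC, had opposite signs in the 2 batches, at 0.0492 percentage points in batch 1 and -0.216 points in batch 2. Each batch holds 1 library per guide, so no test of this contrast between batches was made. Gene-end peaks took 64.9% of the reads in sgPrdm12 replicate 2, against 74.3% in sgNTC replicate 2, and the part of that in the value was not tested.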

How the results depend on the processing

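Among the subfamilies, 0 peaks were called under every alternative run. Over all tested peaks the count was also 0 except without sgPrdm12 replicate 1, when it was 1 (range over left-out libraries 0 to 1). With the replicate block 0 peaks were called, 47 had an unadjusted p under 0.05, against 57 without it, and it changed no call. The Eif median log2 fold change was -0.19 with library size only, -0.19 with no filter, -0.059 with a minimum count of 5, -0.083 with DESeq2, -0.25 on annotated starts, and -0.30 to -0.0086 over left-out libraries. The Rpl/Rps median was -0.14 with no filter, -0.070 with a minimum count of 5, -0.039 with DESeq2, -0.042 with the replicate block, and -0.19 to 0.27 over left-out libraries. The Mrpl/Mrps median was -0.0038 to 0.41 over left-out libraries. The Rpl/Rps share difference ranged from -0.175 to 0.00897 points over left-out libraries, and it was above 0 without sgPrdm12 replicate 2. The Mrpl/Mrps share difference was 0.0191 points on annotated starts, where 12 Mrpl/Mrps and 12 Eif genes had a peak. Of 274 alternative values for single named members, 18 had the opposite sign and 0 passed the threshold. These were Rps18 with the block (-0.042), Mrpl45 with DESeq2 (0.015) and with the block (0.019), and otherwise came from left-out libraries. Over those, the log2 fold change ranged from -0.063 to 0.49 at Rpl14, from -0.36 to 0.47 at Rps18, from -0.11 to 0.69 at Rps15, from -0.091 to 0.53 at Mrpl10, from -0.40 to 0.69 at Mrpl49, from -0.0038 to 0.31 at Mrps12, from -0.22 to 0.33 at Mrpl45, from -0.78 to 0.44 at Mrpl2, from -0.32 to 0.076 at Eif5a, from -0.21 to 0.41 at Eif1 and from -1.40 to 0.48 at Eif1ad. The cause was not tested. In fits without a library, the lone sample was assumed to vary like the other group. Mrpl18 and Mrpl45 have no value within 500 bases. Depth limits single members, most of which had under 40 reads per library.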
